A study of Mus musculus with 6 samples.

Results

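The genes described here are the ligands, receptors and latency proteins of transforming growth factor beta (TGF-beta) in mouse quadriceps. They were chosen by name: the ligands Tgfb1, Tgfb2 and Tgfb3, the receptors Tgfbr1, Tgfbr2 and Tgfbr3, and the latent TGF-beta binding proteins Ltbp1, Ltbp2, Ltbp3 and Ltbp4. They are 10 of the 32285 genes counted, and each was found in all 3 libraries. The mice were male C57BL/6 of wild-type genotype, 2 to 3 months old, and the left quadriceps was digested to single cells at day 7. The groups were a critical volumetric muscle loss injury of 3 mm, a subcritical injury of 2 mm, and uninjured muscle, which carried the same day label and for which the labels name no sham operation. Each group had 4 animals. A hashtag antibody marked the cells of each animal before the 4 animals of a group were mixed. The mixed cells were then labelled with a broad set of barcoded antibodies, and each mix filled 1 lane of a 5' single-cell assay. Group, pool, staining tube and lane therefore cannot be told apart, and animals can be separated only where the hashtag was read.

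TGF-beta is made as an inactive complex. The ligand stays wrapped in its own propeptide, and most latent TGF-beta binding proteins tie that complex to fibrillin and fibronectin in the matrix until integrins or proteases release it. Free ligand binds the type II receptor (Tgfbr2), which recruits and activates the type I receptor (Tgfbr1), and betaglycan (Tgfbr3) presents ligand, above all the product of Tgfb2, to them. In injured muscle the pathway is known for driving matrix production by fibroblasts and for keeping fibro-adipogenic progenitors (FAPs), the muscle's resident mesenchymal cells, alive and fibrogenic.

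The promoters of 4 of these genes are printed because their transcripts lay in different cells or differed between groups. Tgfb1 lay in immune and endothelial cells, Tgfb2 in stromal cells and Ltbp2 in stromal cells of injured muscle. Tgfbr2 lay in several cell types, with its largest share in FAPs of injured muscle, and differed between groups in endothelial cells. Each run is the 250 bases before the start of the gene, 5′ to 3′ on the gene's strand, from RefSeq on GRCm38.p6, which is not the build named for the counts. Capitals mark a GC box (GGGCGG or, on the other strand, CCGCCC) or a TATA box (TATAAA or TTTATA). The regions are chr7:25686752-25687001 on the plus strand for Tgfb1, chr1:186705990-186706239 on the minus strand for Tgfb2, chr9:116175364-116175613 on the minus strand for Tgfbr2 and chr12:84876492-84876741 on the minus strand for Ltbp2.
Tgfb1: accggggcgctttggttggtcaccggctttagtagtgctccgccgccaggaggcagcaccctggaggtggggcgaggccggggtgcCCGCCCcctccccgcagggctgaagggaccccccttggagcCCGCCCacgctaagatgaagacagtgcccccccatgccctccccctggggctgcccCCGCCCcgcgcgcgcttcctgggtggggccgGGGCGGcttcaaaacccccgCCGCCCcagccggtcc
Tgfb2: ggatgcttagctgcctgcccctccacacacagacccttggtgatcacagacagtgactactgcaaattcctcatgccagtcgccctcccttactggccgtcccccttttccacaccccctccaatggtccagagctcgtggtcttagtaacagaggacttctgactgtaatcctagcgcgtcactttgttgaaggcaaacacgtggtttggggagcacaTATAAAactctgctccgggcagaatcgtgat
Tgfbr2: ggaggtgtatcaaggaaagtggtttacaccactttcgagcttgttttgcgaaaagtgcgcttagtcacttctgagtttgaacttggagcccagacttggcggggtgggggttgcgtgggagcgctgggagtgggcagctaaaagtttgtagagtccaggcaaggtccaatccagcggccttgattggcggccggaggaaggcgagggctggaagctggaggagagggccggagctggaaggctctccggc
Ltbp2: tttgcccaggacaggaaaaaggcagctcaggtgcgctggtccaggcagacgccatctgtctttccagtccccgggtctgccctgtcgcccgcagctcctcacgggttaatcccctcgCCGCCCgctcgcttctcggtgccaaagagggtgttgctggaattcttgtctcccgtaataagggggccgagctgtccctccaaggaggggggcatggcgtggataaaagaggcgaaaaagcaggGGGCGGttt
The Tgfb1 promoter was 75.2% G or C and held 5 GC boxes and no TATA box. The Tgfb2 promoter was 53.6% G or C and held 1 TATA box, which spanned bases -31 to -26 from the start, and no GC box. The Tgfb1 and Tgfb2 promoters thus differed in both motifs. The Tgfbr2 promoter (58.4% G or C) held none of the motifs searched, and the Ltbp2 promoter (61.6%) held 2 GC boxes. Of 32851 mouse promoters of the same length, 32.7% held a GC box and 12.4% a TATA box, with a median of 52.4% G or C. The cAMP response element TGACGTCA, its own reverse complement and in 1.55% of promoters, was also searched and was not in these 4. Of the genes described, 8 had a RefSeq promoter, and Tgfb3 and Tgfbr3 are named only. A match is a description of letters and not a site of binding.

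After filtering, 2983 critical, 2784 subcritical and 2117 uninjured cells remained, with 6706773, 4654765 and 5464941 transcript counts (UMIs). Cells were clustered over all libraries and each cluster was named from marker genes, so a class is called FAP-like, endothelial-like and so on. Of the 10 genes, Tgfbr1 alone was among the 2000 variable genes that drew the clusters. Between 10 and 16 cell barcodes were shared by each pair of libraries. The hashtag was read in 92.9% of critical and 92.9% of subcritical macrophage-like cells, in 35.5% of critical, 33.6% of subcritical and 55.0% of uninjured endothelial-like cells, and in at most 7.64% of FAP-like cells. There were 929 critical, 764 subcritical and 163 uninjured FAP-like cells, 602, 565 and 1280 endothelial-like cells, 762, 827 and 30 macrophage-like cells, and 214, 157 and 247 mural-like cells. The 8 FAP markers summed to 57812, 60137 and 37981 CPM in critical, subcritical and uninjured FAP-like cells, with none at 0. Macrophage-like and endothelial-like cells, with 1 unnamed immune cluster, could therefore be tested between animals. FAP-like, mural-like (the supporting cells of vessel walls) and tenocyte-like cells are given as 1 library per group, with no replicate and no test.

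Levels are given as CPM, the UMIs of a gene per 1000000 UMIs of the class in that library, with exact 95% Poisson intervals that cover counting error only. CPM is compared here between cells and groups for 1 gene at a time, never between genes.

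**Figure D1:**
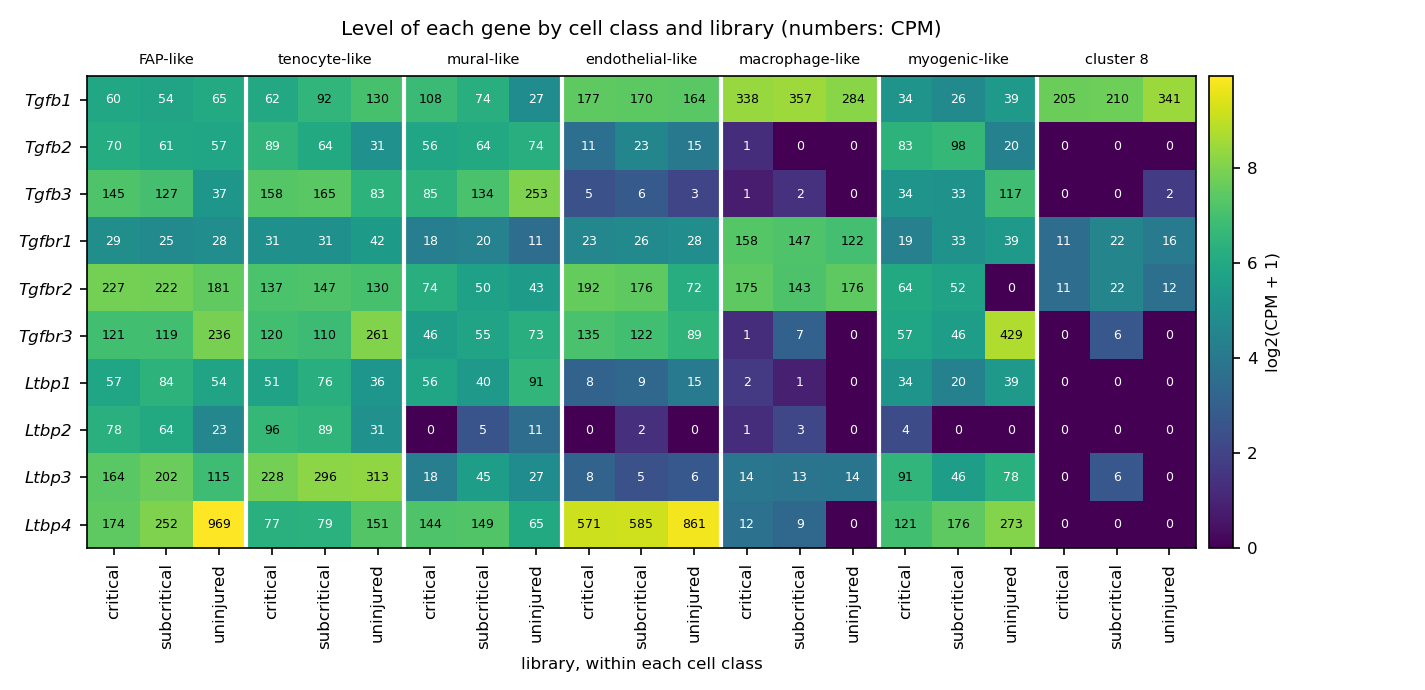
Level of each of the 10 genes (rows) in 6 cell classes and cluster 8 (blocks) of the critical, subcritical and uninjured libraries (columns within a block). Colour is log2(CPM + 1) and the printed number is CPM. Tgfb1 was highest in macrophage-like cells and cluster 8, while Tgfb2, Tgfb3 and Ltbp1 to Ltbp3 were at or near 0 in cluster 8 and below 25 CPM in endothelial-like and macrophage-like cells.

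The 3 ligand genes lay in different cells. Tgfb1, the ligand of immune cells, platelets and endothelium, stood at 338 CPM (308 to 370) in critical and 357 CPM (324 to 393) in subcritical macrophage-like cells. In the 30 uninjured macrophage-like cells it stood at 284 CPM (176 to 434, 21 UMIs). The 3 intervals overlap. In endothelial-like cells it was at 177 CPM (150 to 207), 170 CPM (140 to 204) and 164 CPM (148 to 181) in the critical, subcritical and uninjured libraries. These lie within counting error of each other.

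Cluster 8, an unnamed immune cluster led by Elane, Mpo, Ly6c2 and Nkg7, held Tgfb1 at 205 CPM (145 to 282) in the critical, 210 CPM (148 to 288) in the subcritical and 341 CPM (288 to 401) in the uninjured library. Napsa and Cd209a also led it. Coarser clusters put 150 of its 329 cells in a dendritic-like cluster, 72 critical, 62 subcritical and 16 uninjured. Cluster 8 itself had 124, 137 and 68 cells in these libraries, so it was a mix of cells whose make-up differed between libraries. In the uninjured library 333921 of its 431155 UMIs came from the 43 tagged cells of replicate 2. Replicates 1, 3 and 4 had 3, 6 and 7 tagged cells, so the uninjured level rests mostly on 1 animal. The part of make-up and of this animal in the Tgfb1 levels of cluster 8 was not tested. In FAP-like cells Tgfb1 was at 59.6 CPM (50.7 to 69.6), 53.8 CPM (43.1 to 66.3) and 65.1 CPM (46.9 to 88.0) in the critical, subcritical and uninjured libraries. The 3 FAP-like intervals overlap. The 8 macrophage markers summed to 214, 280 and 6.20 CPM in the same cells, with 0, 0 and 5 of the 8 at 0, and their part in the Tgfb1 level was not tested. Mural-like cells had 108 CPM (77.7 to 146) in the critical, 74.4 CPM (41.6 to 123) in the subcritical and 27.0 CPM (17.5 to 39.8) in the uninjured library.

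Tgfb2, the ligand with the greatest dependence on betaglycan, was a transcript of stromal, mural and myogenic cells. It stood at 69.7 CPM (60.1 to 80.4) in critical, 60.5 CPM (49.2 to 73.7) in subcritical and 57.4 CPM (40.4 to 79.1) in uninjured FAP-like cells. Mural-like cells had 56.5, 64.5 and 74.5 CPM, and tenocyte-like cells 89.1, 64.1 and 31.3 CPM, the last from 6 UMIs of 31 cells. In neither class did all 3 intervals stand apart. Endothelial-like cells had 11.4, 22.5 and 15.0 CPM. Within them cluster 6, led by genes such as Sema3g and Gja5, which are known from arteries, held 32.4, 82.2 and 56.3 CPM from 4, 7 and 36 UMIs. Macrophage-like cells had 2 Tgfb2 UMIs in the critical library and none in the others.

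Tgfb3, a ligand best known from mesenchymal and smooth muscle cells, was a stromal and mural transcript whose level differed between the libraries. FAP-like cells held 145 CPM (131 to 160) in the critical and 127 CPM (110 to 145) in the subcritical library, against 37.2 CPM (23.8 to 55.4) in the uninjured library. Mural-like cells held 84.7 CPM (58.3 to 119) in the critical and 134 CPM (88.2 to 195) in the subcritical library, against 253 CPM (221 to 287) in the uninjured library. The order of the libraries in mural-like cells was thus the reverse of that in FAP-like cells. Endothelial-like cells (4.57, 6.00 and 3.24 CPM) and macrophage-like cells (0.727, 1.65 and 0 CPM) had almost none.

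The receptors were more widely spread. Tgfbr1, the type I receptor, stood at 158 CPM (138 to 181) in critical, 147 CPM (126 to 170) in subcritical and 122 CPM (55.6 to 231) in uninjured macrophage-like cells. FAP-like cells had 28.7, 25.1 and 27.9 CPM and endothelial-like cells 22.8, 25.5 and 28.3 CPM. Neither class differed between libraries beyond counting error. Since Tgfbr1 helped to draw the clusters, its difference between classes is not independent of them.

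Tgfbr2, the type II receptor that binds ligand, was found in FAP-like, endothelial-like, macrophage-like, tenocyte-like and glial-like cells. It was also found in mural-like cells, with 29 UMIs in the critical library, and in myogenic-like cells. FAP-like cells held 227 CPM (210 to 246), 222 CPM (200 to 247) and 181 CPM (150 to 217) in the critical, subcritical and uninjured libraries. Endothelial-like cells held 192 CPM (164 to 223) in the critical and 176 CPM (145 to 210) in the subcritical library, against 71.7 CPM (61.5 to 83.0) in the uninjured library. The uninjured interval of endothelial-like cells lay below both others. Macrophage-like cells had 175, 143 and 176 CPM, and the glial-like cells 283 CPM from 10 UMIs in the critical and 158 CPM from 32 UMIs in the uninjured library. Cluster 8 had 10.8, 22.1 and 11.6 CPM.

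Tgfbr3, betaglycan, was nearly absent from macrophage-like cells, with 2, 9 and 0 UMIs in the critical, subcritical and uninjured libraries. In FAP-like cells it stood at 121 CPM (108 to 135) in the critical and 119 CPM (103 to 137) in the subcritical library, against 236 CPM (200 to 276) in the uninjured library. Tenocyte-like cells showed the same order at 120, 110 and 261 CPM. Myogenic-like cells, led by muscle differentiation genes such as Myog and Actc1, had 56.7 CPM (31.7 to 93.5) and 45.6 CPM (18.3 to 93.9) in the critical and subcritical libraries, against 429 CPM (269 to 650) in the uninjured library. That last value came from 22 UMIs in 27 cells. Endothelial-like cells had 135, 122 and 89.1 CPM, and their cluster 13, led by genes such as Ackr1 and Selp, which are known from venules, 249, 190 and 168 CPM.

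Ltbp1, Ltbp2 and Ltbp3 were each higher in FAP-like than in endothelial-like or macrophage-like cells of every library. Ltbp1, which anchors the latent complex in fibronectin and fibrillin matrix, stood at 57.4 CPM (48.7 to 67.2) in critical, 83.7 CPM (70.3 to 99.0) in subcritical and 54.3 CPM (37.8 to 75.5) in uninjured FAP-like cells, and at 56.5, 39.7 and 90.7 CPM in mural-like cells. Ltbp2, a fibrillin-binding family member that does not itself bind latent TGF-beta, was at 77.9 CPM (67.7 to 89.2) in critical and 64.2 CPM (52.5 to 77.7) in subcritical FAP-like cells, against 23.3 CPM (13.0 to 38.4) in uninjured ones. Endothelial-like cells had 0, 1 and 0 Ltbp2 UMIs. With 2469458 uninjured endothelial-like UMIs, a count of 0 allows a level of up to 1.21 CPM. Ltbp3, which escorts all 3 ligands out of the cell, was at 164, 202 and 115 CPM in FAP-like and 228, 296 and 313 CPM in tenocyte-like cells, against 13.8, 13.2 and 13.5 CPM in macrophage-like cells.

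Ltbp4, which has a role in elastic fibre assembly beside holding latent ligand, was present in endothelial-like, FAP-like and mural-like cells and nearly absent from macrophage-like cells (12.4, 9.08 and 0 CPM). Endothelial-like cells held 571 CPM (522 to 623), 585 CPM (529 to 646) and 861 CPM (824 to 898) in the critical, subcritical and uninjured libraries. Cluster 6 had the highest levels among the 4 endothelial clusters in each library, at 1181, 1045 and 1523 CPM. FAP-like cells held 174 CPM (159 to 191) in the critical and 252 CPM (229 to 278) in the subcritical library, against 969 CPM (894 to 1048) in the uninjured library. The 3 FAP-like intervals stood apart from each other. Within mural-like cells Ltbp4 UMIs lay mostly in cluster 9, led by the pericyte genes Rgs5 and Kcnj8, and were 0, 0 and 5 in cluster 11, led by the smooth muscle genes Myh11 and Acta2.

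**Figure D2:**
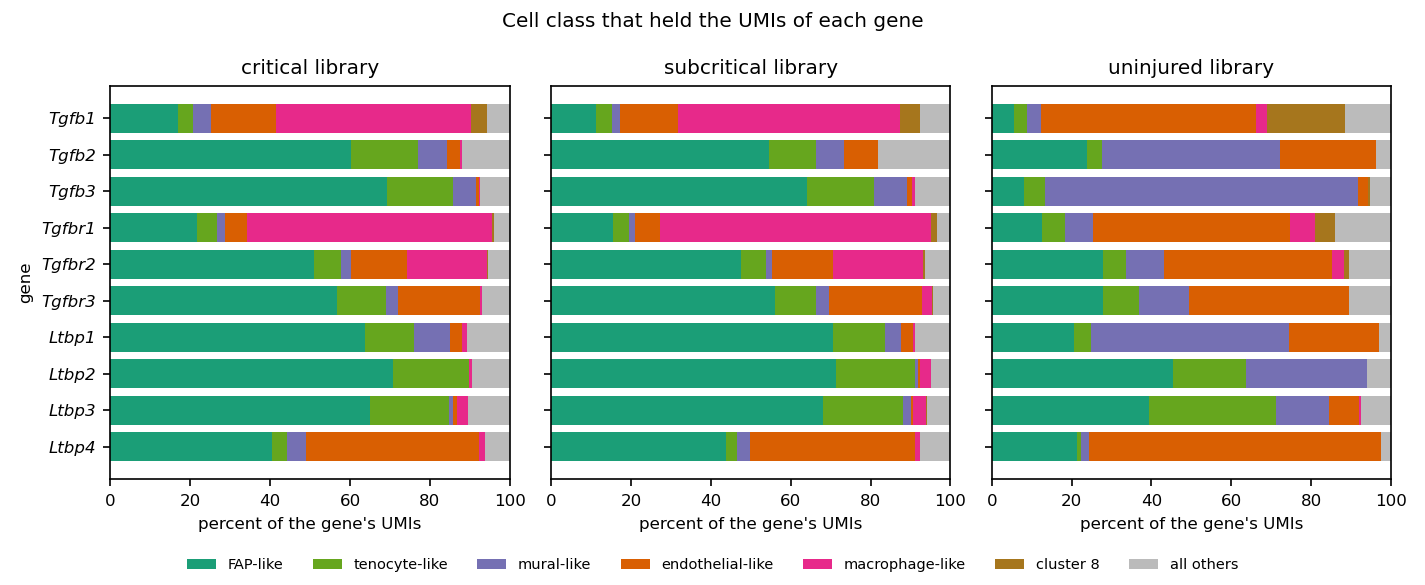
Percent of the UMIs of each gene (horizontal axis) that lay in each cell class (colours), for the critical, subcritical and uninjured libraries (panels). Macrophage-like cells held the largest share of Tgfb1 and Tgfbr1 in the injured libraries and endothelial-like cells in the uninjured library, where mural-like cells held 78.3% of Tgfb3.

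A share of a gene's UMIs follows how many cells of each class were captured as well as the level per cell. Macrophage-like cells held 48.9% of the Tgfb1 UMIs of the critical library (exact 95% interval 45.7 to 52.2) and 55.8% of those of the subcritical library (52.2 to 59.3), while they held 20.5% and 26.0% of all UMIs. In the uninjured library 53.9% (50.3 to 57.5) of Tgfb1 lay in endothelial-like cells, with 45.2% of all UMIs, and 19.6% (16.8 to 22.6) in cluster 8, with 7.89%. Tgfbr1 was likewise 61.2% and 67.7% macrophage-like in the critical and subcritical libraries and 49.3% endothelial-like in the uninjured one. Tgfb1 and Tgfbr1 thus had the same leading class by share in each library. The uninjured 49.3% lay near the 45.2% of all UMIs that endothelial-like cells held. The level of Tgfbr1 was higher in macrophage-like cells there.

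FAP-like cells held 69.3% (65.3 to 73.1) of Tgfb3 in the critical and 64.1% (58.6 to 69.3) in the subcritical library, with 40.0% and 35.2% of all UMIs. In the uninjured library mural-like cells held 78.3% (73.1 to 82.8), with 17.0% of all UMIs. FAP-like cells also led for Tgfb2, Tgfbr2, Tgfbr3, Ltbp1, Ltbp2 and Ltbp3 in both injured libraries, at 47.6% to 71.4%. Ltbp4 was split between endothelial-like and FAP-like cells, at 43.2% and 40.4% in the critical and 41.4% and 43.8% in the subcritical library, against 72.9% and 21.4% in the uninjured library. In the critical library endothelial-like cells held 13.1% of all UMIs, well below their share of Ltbp4. The FAP-like share of Ltbp4 there lay near the 40.0% of all UMIs that these cells held.

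Endothelial-like cells could be compared between animals, and Tgfbr2 rose in both injured groups. The tagged cells of the 4 critical animals had 216, 189, 313 and 258 CPM of Tgfbr2, and those of 3 subcritical animals 84.1, 255 and 148 CPM. The 4 uninjured animals had 26.3, 54.3, 47.4 and 59.4 CPM. Every critical and subcritical animal was above every uninjured animal, and the critical and subcritical animals overlapped. The means were 244 ± 54.1 CPM (SD, n = 4) in critical, 163 ± 86.6 CPM (n = 3) in subcritical and 46.9 ± 14.5 CPM (n = 4) in uninjured animals. Subcritical replicate 3, with 14 tagged cells, was below the minimum of 20 cells and was left out.

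In edgeR's quasi-likelihood test with Benjamini-Hochberg adjustment over 1920 genes, Tgfbr2 was higher by 2.19 ± 0.27 on the log2 scale (SE) in critical than in uninjured animals (adjusted p = 7.73e-08). In subcritical animals it was higher by 1.81 ± 0.33 (adjusted p = 0.000158). Without subcritical replicate 2 the subcritical difference was 1.34, with an edgeR adjusted p of 0.0568. Between critical and subcritical animals the log2 difference was 0.38 ± 0.31 (edgeR adjusted p = 0.823). Of the 10 genes, 4 passed the filter on low counts in these cells (Tgfb1, Tgfbr2, Tgfbr3 and Ltbp4). Tgfbr2 was the 1 of them called in each comparison with uninjured animals. Over all genes tested, 22.6% were called between critical and uninjured animals and 13.8% between subcritical and uninjured animals, so a call was common there.

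The size of the Tgfbr2 difference varied within the class. Cluster 2, led by genes such as Timp4 and Car4, which are known from capillaries, made up 57.0% of uninjured but 8.97% of critical and 2.48% of subcritical endothelial-like cells, and held 140, 67.8 and 44.4 CPM in the critical, subcritical and uninjured libraries. Cluster 0, led by Prnd and Aplnr and the largest endothelial cluster of both injured libraries, held 184, 182 and 99.6 CPM, a log2 fold of libraries of 0.88 (0.20 to 1.62) for critical and 0.86 (0.17 to 1.62) for subcritical over uninjured. Cluster 6 held 324, 235 and 105 CPM, with log2 folds of 1.62 (1.02 to 2.20) and 1.16 (0.36 to 1.89), and cluster 13 held 124, 114 and 108 CPM. In the critical library 3 of the 4 clusters thus exceeded their uninjured level by more than cluster 13 did.

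Without cluster 2, an alternative chosen after seeing the data, edgeR gave a log2 difference of 1.60 (adjusted p = 0.000598) for critical and 1.15 (adjusted p = 0.0649) for subcritical against uninjured animals. In cluster 0 alone too few Tgfbr2 UMIs remained for the test. Tagged and untagged cells also differed in size: over whole libraries the log2 fold of critical over uninjured was 2.12 (1.66 to 2.59) in cells with a hashtag call and 0.75 (0.33 to 1.18) in cells without one, and that of subcritical over uninjured 1.64 (1.06 to 2.21) and 0.88 (0.43 to 1.32). The test describes the tagged cells. Cluster 2 gave 520 of the 704 tagged uninjured cells, 28 of 214 critical and 9 of 190 subcritical ones. A hashtag was read in 71.3% of uninjured cluster 2 cells, against 50.0%, 24.0% and 24.8% in clusters 0, 6 and 13. The part of this in the gap between tagged and untagged cells was not tested. The critical intervals of tagged and untagged cells stood apart and the subcritical ones overlapped. The 8 FAP markers, among them Col1a1 and Col3a1, summed to 680 CPM in critical, 641 CPM in subcritical and 69.2 CPM in uninjured endothelial-like cells, with 0, 1 and 0 of the 8 at 0 and the defining marker Pdgfra at 1.14, 0 and 1.21 CPM. Their part in the result was not tested.

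**Figure D3:**
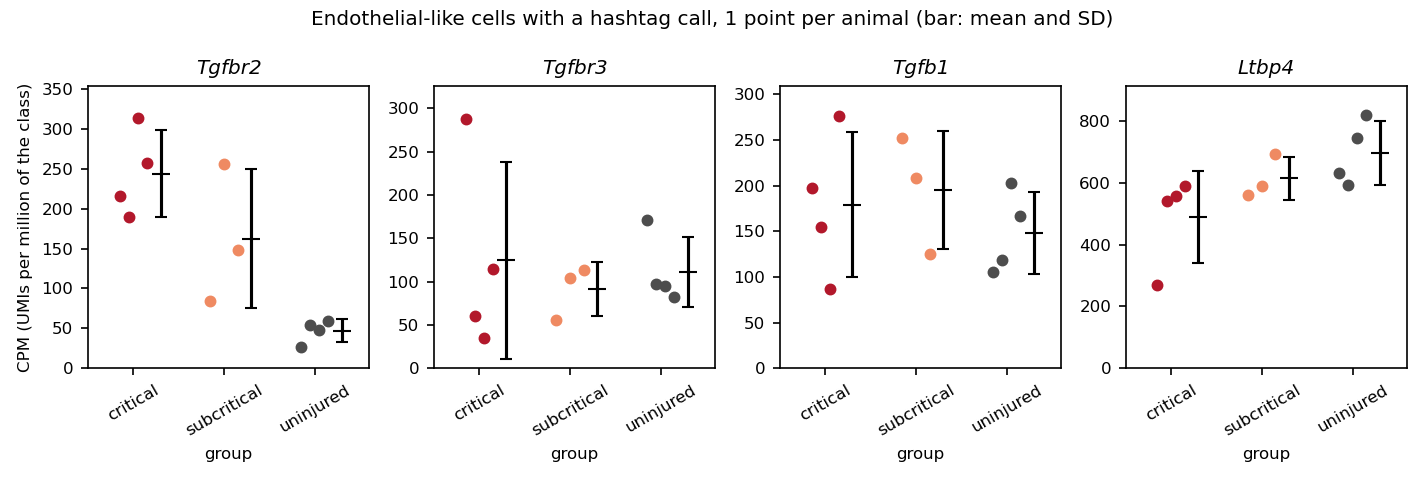
CPM in tagged endothelial-like cells for the 4 genes that passed the filter on low counts, 1 point per animal in the critical, subcritical and uninjured groups. Black marks are the mean and SD. For Tgfbr2 the critical animals (189 to 313 CPM) and subcritical animals (84.1 to 255 CPM) all lie above the uninjured animals (26.3 to 59.4 CPM).

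The other 3 genes did not pass the threshold in endothelial-like cells. Ltbp4 was at 269.9, 542, 557 and 592 CPM in the critical, 561, 592 and 695 CPM in the subcritical and 632, 594, 745 and 819.8 CPM in the uninjured animals. All critical animals lay below all uninjured animals, the nearest pair by a few CPM, with critical replicate 1 well below the rest. The log2 difference of critical against uninjured animals was -0.44 ± 0.17 (edgeR adjusted p = 0.0641) and that of subcritical against uninjured animals -0.11 ± 0.19 (edgeR adjusted p = 0.791). Of 19 alternatives, 5 put the critical difference under the threshold of 0.05. These were without uninjured replicate 2 (-0.54, edgeR adjusted p = 0.0319), no filter on low counts (-0.58, adjusted p = 0.031), marker score classes (-0.48, adjusted p = 0.0499), a minimum of 10 cells per animal (-0.47, adjusted p = 0.0461) and without cluster 2 (-0.95, adjusted p = 0.000913). Over all 19 the adjusted p ran up to 0.874. Untagged cells had library folds of -0.84 and -0.96 and tagged cells -0.45 and -0.13, for critical and subcritical over uninjured.

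Tgfb1 had a mean of 179 ± 79.6 CPM (SD, n = 4) in critical, 196 ± 64.5 CPM (n = 3) in subcritical and 148 ± 44.7 CPM (n = 4) in uninjured animals, and the groups overlapped. Its log2 differences from uninjured animals were 0.34 (edgeR adjusted p = 0.403) and 0.33 (adjusted p = 0.571). Tgfbr3 ranged from 34.8 to 288 CPM in critical, from 56.1 to 114 CPM in subcritical and from 82.4 to 171 CPM in uninjured animals, with edgeR adjusted p = 0.715 and 0.941 against uninjured animals. Between critical and subcritical animals none of the 4 genes was called by edgeR, none had an unadjusted p under 0.05, and DESeq2 did not call the 1 of them to which it gave an adjusted p. Over all genes edgeR called 0.625% there.

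Macrophage-like cells, which held the largest share of Tgfb1 and Tgfbr1 in the injured libraries, could be compared between critical and subcritical animals. Tgfb1 was at 393, 350.3, 369.8 and 295 CPM in the critical and 330.2, 370.2, 309.5 and 362 CPM in the subcritical animals, with means of 352 ± 41.6 and 343 ± 28.1 CPM (SD, n = 4 each). The animals of the 2 groups were interleaved. The fitted log2 difference was -0.05 ± 0.14 (edgeR adjusted p = 0.965), of the opposite sign to the difference of the means and smaller than its error.

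Tgfbr1 was at 139.8, 151, 200.3 and 145 CPM in the critical and 180, 156, 147 and 112 CPM in the subcritical animals, a log2 difference of 0.06 ± 0.18 (edgeR adjusted p = 0.965). Tgfbr2 was at 173, 213, 185 and 131 CPM in the critical and 155, 126, 144 and 138 CPM in the subcritical animals, a log2 difference of 0.26 ± 0.18 (edgeR adjusted p = 0.719). For Tgfbr2, 3 critical animals were above all subcritical animals and the fourth was among them. Of the 10 genes these 3 passed the filter on low counts. None was called, none had an unadjusted p under 0.05, and DESeq2 called none. Over 3982 genes edgeR called 1.03%. In cluster 8 Tgfb1 alone was tested, with a log2 difference of 0.23 ± 0.41 between critical and subcritical animals (edgeR adjusted p = 0.899, where 0.615% of genes were called and DESeq2 did not call it).

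Within macrophage-like cells the receptors were unevenly spread over the clusters. Tgfbr1 helped to draw these clusters, so its differences among them are not independent of them. Cluster 5, led by Mrc1, F13a1 and Ccl8, genes of resident-type macrophages, held Tgfbr1 at 281 CPM in the critical and 321 CPM in the subcritical library and Tgfbr2 at 415 and 405 CPM. Cluster 3, led by the MHC class II genes H2-Eb1 and Cd74, held Tgfbr1 at 118 and 112 CPM and Tgfbr2 at 132 and 97.1 CPM. Cluster 7, led by Mmp12, Gpnmb and Spp1, held Tgfbr1 at 122 and 95.6 CPM and Tgfbr2 at 78.0 and 57.8 CPM. The order of the 3 clusters for Tgfbr2 was the same in both injured libraries. Tgfb1 spread less, at 427 and 477 CPM in cluster 5, 328 and 333 CPM in cluster 3 and 297 and 322 CPM in cluster 7.

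**Figure D4:**
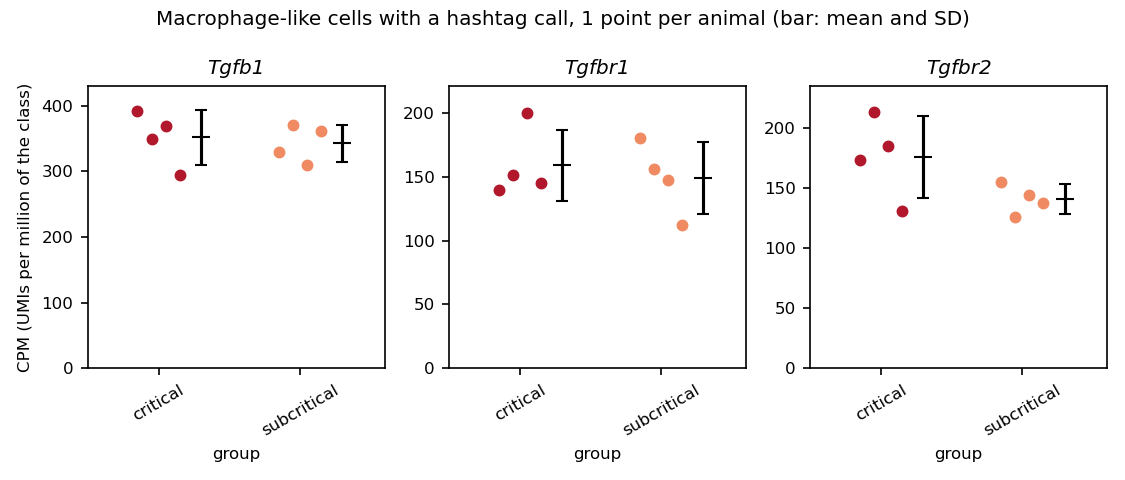
CPM in tagged macrophage-like cells for Tgfb1, Tgfbr1 and Tgfbr2, 1 point per animal in the critical and subcritical groups. Black marks are the mean and SD. The groups overlap in all 3 panels, with Tgfb1 between 295 and 393 CPM in critical and between 309.5 and 370.2 CPM in subcritical animals.

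FAP-like cells were compared as libraries, by the log2 ratio of CPM after adding 1 CPM to each, with exact 95% binomial intervals for counting error. A gene is called past 2-fold when its mean is at least 5 CPM. In critical over uninjured cells Tgfb3 was higher by 1.93 (1.35 to 2.57) and Ltbp2 by 1.70 (0.97 to 2.52), while Ltbp4 was lower at -2.47 (-2.65 to -2.30). In subcritical over uninjured cells the same 3 genes had 1.74 (1.14 to 2.39), 1.43 (0.66 to 2.27) and -1.94 (-2.12 to -1.76). So 2 of 10 genes were higher and 1 lower past 2-fold in each injury. Of all genes, 8.82% were higher and 9.69% lower in critical over uninjured cells, and 8.41% and 9.81% in subcritical over uninjured cells. The medians over the 10 genes were 0.18 and 0.18, against -0.05 and -0.08 over all genes.

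Tgfbr3 stopped just short of 2-fold, at -0.96 (-1.24 to -0.67) in critical and -0.98 (-1.29 to -0.66) in subcritical over uninjured FAP-like cells. Ltbp3 was at 0.51 (0.16 to 0.88) and 0.81 (0.44 to 1.19), and Tgfbr2 at 0.32 (0.04 to 0.62) and 0.29 (-0.01 to 0.60). The intervals of Tgfb1, Tgfb2 and Tgfbr1 included 0 in both comparisons. In critical over subcritical FAP-like cells 0 of the 10 genes was past 2-fold, where 1.75% of all genes were in either direction. The intervals of 3 latency genes excluded 0 there: Ltbp4 at -0.53 (-0.73 to -0.34), Ltbp1 at -0.54 (-0.87 to -0.20) and Ltbp3 at -0.30 (-0.51 to -0.09), each lower in the critical library.

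The FAP-like class did not have the same make-up in the 3 libraries. Cluster 1, led by Ptn, H19, Postn and Lrrc15, had 478 critical, 340 subcritical and 0 uninjured cells. Cluster 4, led by Myoc, Gsn and Pi16, had 286 critical and 289 subcritical cells and 158 uninjured cells, which were 96.9% of the uninjured class. Within cluster 4 alone Tgfb3 was at 94.9, 71.8 and 37.4 CPM in the critical, subcritical and uninjured libraries and Ltbp4 at 405, 535 and 975 CPM. Their log2 folds over uninjured cells were 1.32 (0.64 to 2.04) and 0.92 (0.16 to 1.71) for Tgfb3 and -1.26 (-1.47 to -1.06) and -0.86 (-1.07 to -0.66) for Ltbp4. Both genes thus kept their direction in cluster 4 at a smaller size. Cluster 1 held Tgfb3 at 156 and 140 CPM and Ltbp4 at 84.6 and 117 CPM in the critical and subcritical libraries.

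Ltbp2 in cluster 4 lay on the same side of 0 as in the whole class for critical cells and on the other side for subcritical cells. It was at 40.3 CPM (28 UMIs) in the critical, 5.82 CPM (3 UMIs) in the subcritical and 23.4 CPM (15 UMIs) in the uninjured library, with log2 folds over uninjured of 0.76 (-0.17 to 1.72) for critical and -1.84 (-3.64 to -0.17) for subcritical. Most Ltbp2 UMIs of injured FAP-like cells lay in cluster 1 (67.2 and 73.7 CPM) and in cluster 10 (301 and 210 CPM), a low-depth cluster led by nuclear transcripts such as Neat1, with 5 uninjured cells. Tgfbr1 and Tgfb2 in cluster 4 stayed within counting error of uninjured cells. Tgfb1 was lower there, at -0.74 (-1.48 to -0.02) and -1.14 (-2.07 to -0.28), although it was within counting error over the whole class.

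**Figure D5:**
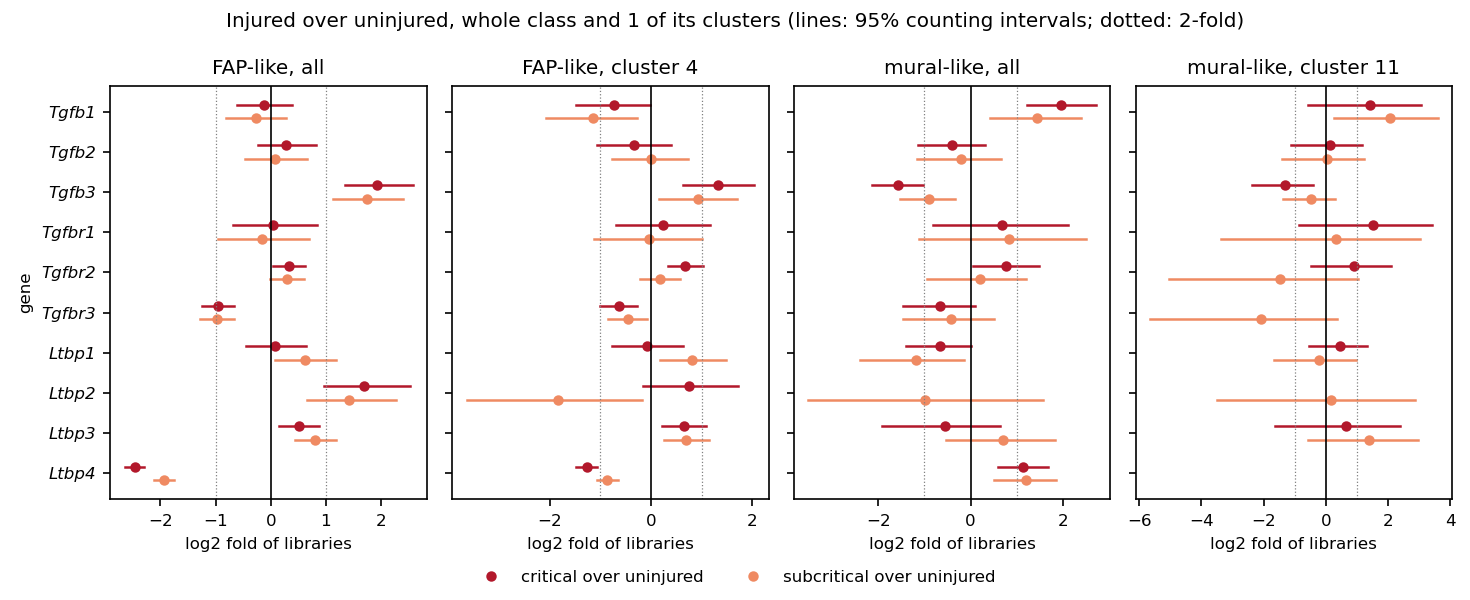
Log2 fold of libraries for each gene, critical over uninjured and subcritical over uninjured, in all FAP-like cells, FAP-like cluster 4, all mural-like cells and mural-like cluster 11. Lines are 95% counting intervals, dotted lines mark 2-fold, and points with 0 UMIs in either library are not drawn. The horizontal scales of the panels differ. In FAP-like cells Tgfb3 and Ltbp2 lie right of 2-fold and Ltbp4 left of it, while in mural-like cells Tgfb3 lies left of 0 and Ltbp4 right of it.

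Mural-like cells showed other differences. Tgfb1 was higher by 1.96 (1.23 to 2.71) in the critical and 1.43 (0.42 to 2.39) in the subcritical over the uninjured library. Tgfb3 was at -1.56 (-2.13 to -1.04) in critical and -0.91 (-1.54 to -0.34) in subcritical over uninjured cells, and Ltbp4 at 1.14 (0.59 to 1.68) and 1.19 (0.51 to 1.84). Ltbp1 was at -1.17 (-2.39 to -0.15) in subcritical over uninjured cells. Ltbp2 had 0 UMIs in the critical and 10 in the uninjured library, which against the limit of 3 counts is at least 1.40-fold lower. Past 2-fold were 2 genes higher and 2 lower in the critical comparison (17.3% and 10.3% of all genes), counting Ltbp2, whose place there rests on the pseudocount. In the subcritical comparison 2 were higher and 1 lower (16.1% and 13.1%). In critical over subcritical mural-like cells 1 of 9 was past it, Ltbp3 at -1.27 (-2.83 to 0.27), lower in the critical library, where 14.2% of all genes were higher and 7.81% lower.

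Here too the clusters shifted. Cluster 11 made up 189 of 247 uninjured mural-like cells but 57 of 214 critical and 52 of 157 subcritical ones. In cluster 11 Tgfb3 was at 119, 211 and 295 CPM in the critical, subcritical and uninjured libraries, log2 folds over uninjured of -1.30 (-2.37 to -0.40) and -0.48 (-1.37 to 0.29). In cluster 9 it was at 75.3, 96.1 and 64.8 CPM. Ltbp4 in cluster 9 was at 183, 222 and 324 CPM, a log2 fold of -0.82 (-1.38 to -0.26) for critical over uninjured, so the direction of Ltbp4 over the whole class was not that within its cluster. Tgfb1 in cluster 9 was at 124, 73.9 and 70.7 CPM, with intervals of the folds that included 0. The FAP markers summed to 7589, 2931 and 529 CPM and the macrophage markers to 383, 451 and 4.32 CPM in critical, subcritical and uninjured mural-like cells. Of the 8 FAP markers 0, 2 and 2 were at 0, with 2, 0 and 0 UMIs of Pdgfra, and of the 8 macrophage markers 0, 0 and 5. Their part in these results was not tested.

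In tenocyte-like cells, with 138 critical, 122 subcritical and 31 uninjured cells, Ltbp2 was at 1.59 (0.40 to 3.02) in critical and 1.47 (0.20 to 2.96) in subcritical over uninjured cells and Tgfbr3 at -1.11 (-1.65 to -0.56) and -1.24 (-1.89 to -0.59). Tgfb3 was at 0.91 (0.14 to 1.76) and 0.97 (0.16 to 1.87). The directions of these 3 genes were those of FAP-like cells. Tgfb2 was at 1.48 (0.29 to 2.92) and 1.01 (-0.32 to 2.54), and Tgfb1 at -1.07 (-1.83 to -0.28) and -0.50 (-1.31 to 0.31). Past 2-fold were 2 genes higher and 2 lower in the critical comparison (16.9% and 16.1% of all genes), and 3 higher and 1 lower in the subcritical one (16.5% and 18.1%). In critical over subcritical cells it was 0 of 10, where 17.8% of all genes were past 2-fold. Myogenic-like cells had Tgfbr3 at -2.90 (-3.93 to -1.89) and -3.21 (-4.64 to -1.94) in critical and subcritical over uninjured cells, from 15, 7 and 22 UMIs. Also past 2-fold in both comparisons were Tgfb2 and Tgfbr2, higher, and Tgfb3, lower. Tgfbr1 and Ltbp4 were lower past 2-fold in critical over uninjured cells alone. The uninjured myogenic-like cells numbered 27 and held 51278 UMIs of all genes, which limits these folds. No share over all genes is given for this class, so how common such folds were there is not shown.

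Other genes of the pathway were taken from a list of 47, in 6 roles. In FAP-like cells 18 of 45 genes over 5 CPM were higher and 3 lower past 2-fold in critical over uninjured cells, and 19 and 4 of 44 in subcritical over uninjured cells. Over all genes 8.82% were higher and 9.69% lower in the critical comparison, and 8.41% and 9.81% in the subcritical one. Most lay among the 16 target genes, of which 12 were higher and 1 lower in each. The 8 with the widest fold in critical over uninjured cells were the collagen-processing factor Cthrc1 (6.47), the matricellular genes Postn (5.60) and Tnc (4.83), the contractile genes Tagln (4.51) and Acta2 (3.42), the fibrillin Fbn2 (3.93), the proteoglycan Fmod (3.79) and the collagen crosslinker Lox (2.95). The same 8 led in subcritical over uninjured cells: Cthrc1 (6.76), Postn (5.33), Tnc (4.65), Tagln (4.50), Fbn2 (4.37), Fmod (3.92), Lox (2.98) and Acta2 (2.98). Cthrc1 stood at 1188 CPM in the critical and 12.4 CPM in the uninjured library. Postn and Tnc are among the leading genes of cluster 1, which had no uninjured cell. Among the 12 higher targets, Col1a1 and Col3a1 are FAP markers, from which the class was named. The list was chosen with earlier results of these data known. No values within cluster 4 are given for the listed genes, and the part of make-up in these counts was not tested.

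The genes lower in both comparisons were Dcn (interval -2.04 to -1.96 in critical and -1.89 in subcritical over uninjured cells), a TGF-beta-binding proteoglycan and one of the FAP markers, Tgfbi (-1.35 and -1.29), a matrix protein induced by TGF-beta, and Acvrl1 (-1.16 and -1.09), the type I receptor ALK1. The signal transducer Smad2 was at -0.64 (-1.28 to 0.03) in the critical and -1.02 (-1.77 to -0.25) in the subcritical comparison. Of the 9 inhibitors 1 was past 2-fold in each, Tgif1, a repressor of SMAD-driven transcription (1.37 and 1.11). In critical over subcritical FAP-like cells 0 of 44 genes were past 2-fold in either direction. In mural-like cells 16 of 44 were higher and 6 lower in the critical over the uninjured library, 14 and 7 of 45 in the subcritical over the uninjured library, and 8 and 0 of 44 in the critical over the subcritical library. Over all genes the shares higher and lower were 17.3% and 10.3%, 16.1% and 13.1%, and 14.2% and 7.81% in these 3 comparisons, so the count of the last lay near the share of all genes. In the critical over the uninjured library the 8 widest were the protease inhibitor Timp1 (6.69), Col1a1 (4.53), Tnc (4.08), Cthrc1 (4.05), Fbn2 (5 UMIs against none, at least 3.96-fold higher against a limit of 3 counts), Dcn (3.74), the fibrillin Fbn1 (3.73) and Col3a1 (3.69). Those higher in the critical over the subcritical library included Tnc (3.73), Dcn (2.61), Cthrc1 (2.26), Col1a1 (1.82), Timp1 (1.60), Postn (1.44) and Fn1 (1.10). Dcn, Col1a1 and Col3a1 are FAP markers, and the FAP marker sums given above moved the same way. Of the contractile genes, Acta2 (-1.49 and -1.01) was lower in critical and subcritical over uninjured mural-like cells, and Tagln (-1.77) in critical ones, beside the smaller share of cluster 11, which both genes lead.

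In tagged endothelial-like cells 14 of the 47 genes were tested with edgeR, and 4 rose and 4 fell in critical against uninjured animals. DESeq2 called 7 of these 8, all but Acvrl1 (adjusted p = 0.0643). Over all genes tested, edgeR called 22.6% in this comparison. The collagen genes Col1a1 (log2 3.92, edgeR adjusted p = 3.16e-08) and Col3a1 (3.53, adjusted p = 3.24e-08) rose, but both are FAP markers and part of the sums given above. The matrix gene Fn1 (2.35, edgeR adjusted p = 0.000993) and Pmepa1, an inhibitor that TGF-beta itself induces (1.14, adjusted p = 0.0148), rose as well. Pmepa1 averaged 127 ± 7.02 CPM (SD, n = 4) in critical and 51.2 ± 24.3 CPM (n = 4) in uninjured animals. The 4 that fell were the inhibitory SMAD Smad7 (-1.15, edgeR adjusted p = 0.0073), the target genes Id1 (-0.91, adjusted p = 9.65e-05) and Id3 (-0.84, adjusted p = 0.000136) and the receptor Acvrl1 (-0.84, adjusted p = 0.0147). Id1 and Id3 are best known as targets of bone morphogenetic proteins, which also signal through Acvrl1. A smaller share of critical than of uninjured tagged cells lay in cluster 2. Values of these 8 genes without that cluster are not given, and its part in their differences was not tested.

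Id1 averaged 548 ± 192 CPM (SD, n = 4) in critical and 1080.3 ± 141 CPM (n = 4) in uninjured animals, and Acvrl1 121 ± 17.3 and 208 ± 38.4 CPM. In subcritical against uninjured animals Col1a1 (3.69, edgeR adjusted p = 3.67e-06) and Col3a1 (3.50, adjusted p = 1.98e-06) rose, and Pmepa1 (0.58, adjusted p = 0.475), Id1 (-0.32, adjusted p = 0.259) and Acvrl1 (-0.84, adjusted p = 0.06) did not pass. Col1a1 and Col3a1 were the 2 of 14 genes called there, near the 13.8% that edgeR called over all genes. Between critical and subcritical animals edgeR called 0 of 14, with 4 at an unadjusted p under 0.05, and DESeq2 called 0 of the 4 to which it gave an adjusted p. In macrophage-like cells edgeR called 0 of 21, with 2 at an unadjusted p under 0.05, and DESeq2 called 0 of 19. In cluster 8 both tools called 0 of 4, with 1 at an unadjusted p under 0.05. Over all genes tested between critical and subcritical animals, edgeR called 0.625% in endothelial-like cells, 1.03% in macrophage-like cells and 0.615% in cluster 8. A call was thus rare there.

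Of the antibodies in the panel, CD61, the integrin beta 3 chain that pairs with the alpha V chain to release latent TGF-beta, was the one to a protein of the pathway list. As a share of panel antibody counts it was 1.10%, 0.951% and 1.01% in critical, subcritical and uninjured FAP-like cells, against a mean of 0.169%, 0.212% and 0.198% for the isotype controls. Macrophage-like cells of the critical and subcritical animals had 0.406 ± 0.0140% and 0.401 ± 0.0155% (SD, n = 4 each; exact two-sided permutation p = 0.543, adjusted p = 0.543 over 5 comparisons). Endothelial-like cells had 0.452 ± 0.123% in critical and 0.343 ± 0.0276% in uninjured animals (n = 4 each; exact permutation p = 0.0571, adjusted p = 0.286), where all 4 animals entered on each side. Subcritical against uninjured animals (0.389% and 0.343%) gave an exact permutation p of 0.229, critical against subcritical animals (0.452% and 0.389%) one of 0.514, and cluster 8 of critical against subcritical animals (0.346% and 0.478%) one of 0.286. The smallest possible p was 0.0286 where both groups had 4 animals and 0.0571 where 1 had 3, so after adjustment over 5 comparisons no outcome could have passed 0.05, and these p-values cannot tell a difference from none.

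Likeness between genes was described over 21 sums of a class in a library with at least 50 cells, as Pearson's r of log2(CPM + 1). The sums share libraries and cluster boundaries, so no p is given. Tgfb1 ran against the other ligands, with r = -0.76 to Tgfb2 and -0.75 to Tgfb3. Tgfb2 and Tgfb3 ran together (0.89), and both ran with Ltbp1 (0.93 and 0.89). Tgfbr3 ran with Ltbp4 (0.90). Among 11366 genes, the most alike were Tmem179b, Fmnl1 and Clic1 to Tgfb1 (0.91 for each to 2 decimals), Sspn, Map1b and Tcaf1 to Tgfb2 (0.95, 0.95 and 0.94), and Fat1, Obsl1 and Antxr1 to Tgfb3 (0.95, 0.95 and 0.93).

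For the receptors these were Ctsd, Fcna and Npy to Tgfbr1 (0.93, 0.88 and 0.88), Serpinb6a, Rai14 and Emp1 to Tgfbr2 (0.92, 0.90 and 0.90), and Nfib, Amotl2 and Hspg2 to Tgfbr3 (0.95 for each). For the latency genes they were Bag2, Twsg1 and Il17rc to Ltbp1 (0.94 for each), Fgfr2, Gask1a and Col8a2 to Ltbp2 (0.94, 0.92 and 0.91), Egfr, Pmepa1 and Fibin to Ltbp3 (0.94, 0.93 and 0.93), and Vangl1, Wwtr1 and Nfib to Ltbp4 (0.96 for each). Nfib was thus among the 3 genes most like both Tgfbr3 and Ltbp4.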

How the data were processed

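Cells of mouse quadriceps were measured by single-cell RNA and antibody sequencing in 3 libraries, 1 per group. The authors deposited, for each library, a filtered matrix of raw UMI counts for 32285 genes and 142 antibodies; per the submitters' processing notes these were made with bcl2fastq and Cell Ranger on GRCm39, with versions not given in the sources used here. Reads of near-identical genes could be lost in that counting.

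Cells with several hashtags were removed (177 critical, 117 subcritical, 77 uninjured). Barcodes under 200 genes or 500 UMIs, or with over 20% of UMIs from mitochondria, were dropped, and the rest were analysed at a median of 1591, 1275.5 and 1797 UMIs. A doublet caller marked 51, 23 and 1 barcodes, has not worked for the uninjured library, and its calls were not removed in the main analysis. Cells were clustered with scanpy 1.11.5 (2000 variable genes, 30 components, 15 neighbours, resolution 0.8, no batch correction). Clusters took a class name from marker lists. The rule that leaves a cluster unnamed was settled after the clusters were seen. Hashtags were called by a mixture model at a posterior of 0.5. In the uninjured library a count of 2 was enough for each hashtag. The fitted signal means of uninjured hashtags 1 and 4 lay at 4, the lowest value the fit allowed, so calls there rest on low counts. Hashtag numbers name animals within a group and pair none.

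Counts were summed per animal with at least 20 tagged cells and tested with edgeR 4.0.16 (quasi-likelihood, TMM, filterByExpr, Benjamini-Hochberg, threshold 0.05, R 4.3.3), with DESeq2 1.42.0 as an alternative. The script was tested on simulated data. Endothelial-like animals held 35678 to 607509 UMIs and macrophage-like animals 150255 to 467397. Other classes were compared as library sums with a pseudocount of 1 CPM. Intervals are exact, at 95%, and cover counting error only, since pooled animals give no replicate. Antibody levels are the share of panel counts.

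The members and lists were chosen with earlier results of these data known. The 10 genes are named throughout, with the 8 widest other pathway genes past 2-fold, all called ones, and the 3 most alike genes; Tgif1, Smad2 and the genes lower past 2-fold were named after their values were seen. The values of 1 gene of the pathway list are not reported here.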

Additional observations from a re-analysis of the deposited data

Results flagged for a closer look

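Across 20 groups of 4 animals, 2 had an animal far from the others, where chance gives about 1 in 20. Critical replicate 1 had 269.92 CPM of Ltbp4 in endothelial-like cells, from 15 UMIs of 26 cells, against 542 to 592 CPM in the other critical animals. Uninjured replicate 1 had 171.219 CPM of Tgfbr3 in endothelial-like cells, from 13 UMIs of 28 cells, against 82.4 to 97.1 CPM in the other uninjured animals.

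Library folds ran in opposite directions in FAP-like and mural-like cells for 2 genes, and the difference was not tested because neither class has animals to test. Ltbp4 had a log2 fold over uninjured of -2.47 in critical and -1.94 in subcritical FAP-like cells and of 1.14 in critical and 1.19 in subcritical mural-like cells. In mural-like cluster 9, which holds nearly all mural-like Ltbp4, the folds were -0.82 and -0.55. Tgfb3 had a log2 fold of critical over uninjured of 1.93 in FAP-like and -1.56 in mural-like cells. Within mural-like cells it was -1.30 in cluster 11 and 0.21 in cluster 9.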

How the results depend on the processing

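The rise of Tgfbr2 in critical against uninjured endothelial-like animals held under all 18 alternatives (log2 1.60 to 2.33), and the leading class of each gene in each library was the same under every alternative run. Of member tests that leave out no animal, 134 kept their direction and call, 16 reversed, 4 became called and 1 lost its call. Of library folds, 612 stayed within counting error, 40 moved and 1 reversed, which was Tgfb1 in tenocyte-like cells without the 10 highest cells (1.71), a setting that removes 10 of 31 uninjured cells. That setting raised the folds past 2-fold in FAP-like, mural-like and tenocyte-like cells to 43, against 22 of 90.

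Counts of genes called changed as follows. Macrophage-like, 41 as reported, gave 27 with DESeq2, 19, 18 and 19 in clusters 3, 5 and 7 alone, and 25 to 51 leaving out 1 animal. Endothelial-like critical against subcritical, 12 as reported, gave 19 with marker score classes, 4 to 13 leaving out 1 critical or subcritical animal and 11 leaving out any 1 uninjured animal. Critical against uninjured, 434 as reported, gave 193 without cluster 2, 90 in cluster 0 alone, 309 to 408 leaving out 1 critical or uninjured animal and 449 to 460 leaving out 1 subcritical animal, which shares the estimate of the spread. Subcritical against uninjured, 264 as reported, gave 158 with a hashtag share of 70%, 109 without cluster 2, 47 in cluster 0 alone, 167 to 249 leaving out 1 subcritical or uninjured animal and 266 to 299 leaving out 1 critical animal. Cluster 8, 4 as reported, gave 7 with no filter on low counts, 7 with a minimum of 10 cells and 2 to 7 leaving out 1 animal. Settings by cluster hold fewer cells. The cause of the other changes was not tested. Cluster settings were chosen after seeing the data.

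Log2 differences that reversed were all below the threshold. In macrophage-like cells they were Tgfbr1 (-0.21) and Tgfbr2 (-0.0080) in cluster 5, and Tgfb1 with marker score classes (0.015) and in cluster 3 (0.070). In endothelial-like critical against subcritical animals they were Tgfbr3 with the 70% hashtag share (-0.40) and marker score classes (-0.22), and Tgfb1 with DESeq2 (-0.028), the hashtag share (-0.043) and marker score classes (-0.087). Tgfbr3 reversed against uninjured animals in critical ones with the hashtag share (-0.028) and marker score classes (-0.41), and in subcritical ones with no filter (-0.079), DESeq2 (-0.043) and marker score classes (-0.20). Ltbp4 in subcritical against uninjured animals was 0.13 with the hashtag share and 0.094 in cluster 0 alone. Leaving out 1 animal of the groups compared gave -0.31 to 0.18 for Tgfb1 and -0.43 to 0.36 for Tgfbr3 in critical against subcritical endothelial-like cells, -0.34 to 0.44 for Tgfbr3 in critical and -0.068 to 0.22 in subcritical against uninjured ones, and -0.11 to 0.038 for Tgfb1 and -0.085 to 0.14 for Tgfbr1 in macrophage-like cells.

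CD61 as mean counts per cell reversed, with differences of -0.146 in macrophage-like cells and, in endothelial-like cells, -0.554 for critical and -0.259 for subcritical against uninjured and -0.295 for critical against subcritical animals. As a percent of panel counts it was -9.59e-05 to 0.0129 in macrophage-like cells leaving out 1 animal. No paired analysis was possible because the hashtag numbers only name animals within a group. Cluster 8 was not run with marker score classes, which hold no clusters, or with coarser clusters, where 45.6% of its cells was the largest part kept together. With clusters drawn without the 10 genes, where 95.7% of its cells stayed together, it gave 4 genes called, and Tgfb1 did not pass the filter on low counts. Depth limits genes with a few UMIs per class, above all in the 30 uninjured macrophage-like and 31 uninjured tenocyte-like cells.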
